A study of Mus musculus with 2 samples.

Results

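The 10 genes described here encode the contractile apparatus of smooth muscle: Acta2, Actg2, Myh11, Myl9, Cnn1, Tagln, Smtn, Lmod1, Des and Synpo2. They were listed by name, with earlier results of the same 2 arrays in view, and they are 10 of the 22180 genes that the array annotation allowed to be read. Each gene was read from a probe set annotated with exactly 1 gene symbol, and where a gene had several such probe sets, the one with the highest mean of the 2 arrays was used. The genes were chosen by values of the same contrast, the irradiated minus control log2 differences, so the differences of the 10 genes are given as a description and nothing is concluded from their number.

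Liver RNA was measured on 2 Affymetrix arrays, 1 per group. The control group was a male C57BL/6 mouse liver at 9 weeks of age with no treatment. The irradiated group was a male C57BL/6 mouse liver at 9 weeks of age, from mice given 6 Gy of gamma rays to the whole body in 1 exposure at 4 weeks of age, at 0.81 Gy per minute under anaesthesia, with the tissue taken 5 weeks later. C57BL/6 is an inbred strain, and neither group carried an engineered allele. The labels do not say whether an RNA came from 1 mouse or several, nor whether the control was anaesthetised. Since neither group had a replicate, no difference below has a replicate check, no test was possible and no p-value is given. The hepatocyte markers, a check of the tissue, were read near the top of the scale on both arrays, with Alb at 13.7 on each.

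Smooth muscle cells contract when calcium activates myosin light chain kinase, which phosphorylates the regulatory light chain and lets smooth muscle myosin pull on actin filaments. Calponin, transgelin and smoothelin bind those filaments, leiomodin helps to assemble them, and desmin links them to the rest of the cell. In liver these genes are known from the muscle of portal vessels and arteries, and some of them, above all Acta2, also from activated stellate cells and portal fibroblasts, which is why Acta2 is widely used as a marker of myofibroblasts.

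Among the 10 genes, Cnn1 and Acta2 stood far above the others on the irradiated array, Des, Myl9, Actg2 and Tagln were moderately higher, and Myh11, Synpo2, Smtn and Lmod1 differed by less than 1.5-fold. Values are log2 values as deposited, so a difference of 1 is a 2-fold difference, and every difference is irradiated minus control. Of the 10 genes, 6 were at least 1.5-fold higher, where 1.23% of all 22180 genes were, and 2 were at least 2-fold higher, where 0.266% were. In the other direction 0 of the 10 were 1.5-fold or 2-fold lower, where 0.888% and 0.144% of all genes were. The median difference was 0.72 over the 10 genes and 0.00 over all 22180 genes, of which 10627 were above 0. The rule used this contrast, so nothing is read from these counts. In a bulk sample, more cells of a type and more RNA per cell cannot be told apart.

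**Figure D1:**
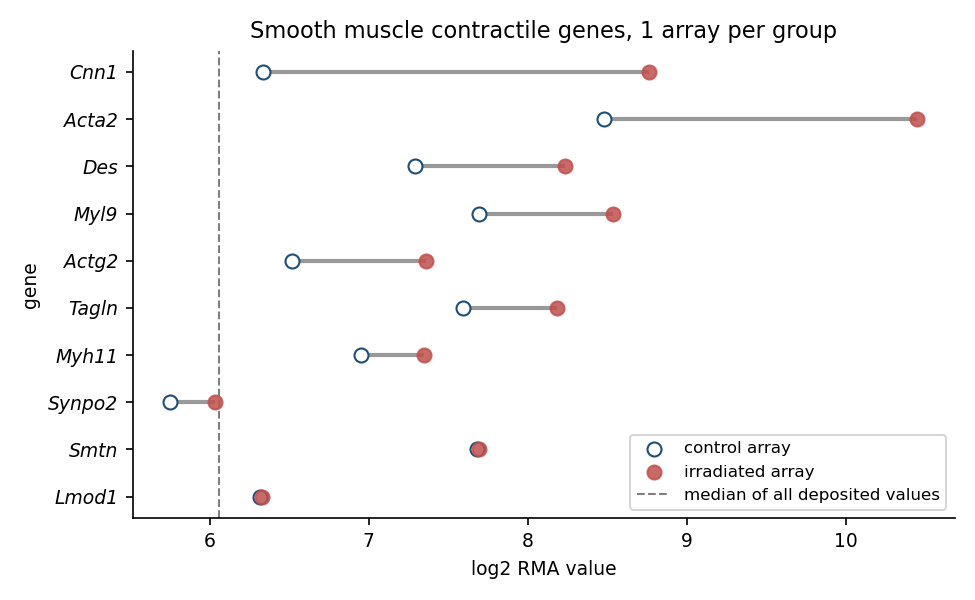
Log2 value (horizontal axis) of each of the 10 contractile genes (vertical axis) on the control array (open circles) and the irradiated array (filled circles), with 1 array per group and the median of all deposited values as a dashed line. Cnn1 (6.34 to 8.76) and Acta2 (8.48 to 10.45) have the longest lines, and the points of Smtn and Lmod1 nearly coincide.

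The actin filament genes differed unequally. Acta2 encodes smooth muscle alpha-actin, the main actin of vascular smooth muscle. Its value was 8.48 in the control and 10.45 after irradiation, higher by 1.97 or 3.92-fold. Actg2 encodes gamma-actin of smooth muscle, which prevails in the muscle of gut and other hollow organs. It read 6.51 in the control and 7.36 after irradiation, a difference of 0.84 or 1.79-fold. The proteins of the 2 genes are nearly identical and their transcripts are alike in sequence, so the probes of either gene could take signal from the other, and how far they do was not tested.

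The other actin genes differed by less. Actb, the general cytoplasmic beta-actin, read 10.71 and 10.52, a difference of -0.18. Actg1, the cytoplasmic gamma-actin, read 8.76 and 9.09, a difference of 0.33, in the highest of its 6 probe sets. The skeletal actin gene Acta1 was at -0.09 and the cardiac actin gene Actc1 at 0.17. Actc1 read 5.07 and 5.23, below the median of all deposited values on both arrays. None of these 4 actin genes reached 1.5-fold, where 1.23% of all genes were that much higher and 0.888% lower. Their median was 0.04, or -0.02 with the probe sets of each gene averaged. The difference of Acta2 exceeded theirs by 1.64 (Actg1) to 2.15 (Actb) on the log2 scale.

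The motor subunits were less displaced than alpha-actin. Myh11 encodes the heavy chain of smooth muscle myosin, a gene largely restricted to smooth muscle. It read 6.95 in the control and 7.35 after irradiation, a difference of 0.40 or 1.32-fold, short of 1.5-fold and inside the central 95% of all genes, which ran from -0.42 to 0.46. Myl9 encodes the regulatory light chain that the kinase phosphorylates. It read 7.69 and 8.54, a difference of 0.85 on the log2 scale. Thus the light chain gene, but not the heavy chain gene, was past 1.5-fold on these arrays, and no test of that contrast was possible.

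The genes of filament-binding proteins spanned the whole range. Cnn1 encodes calponin, which binds actin and restrains the myosin motor in differentiated smooth muscle. It read 6.34 in the control and 8.76 after irradiation, a difference of 2.42 or 5.37-fold, the largest of the 10. Tagln encodes transgelin (SM22-alpha), an actin cross-linking protein and an early marker of the lineage. It read 7.59 and 8.19, a difference of 0.59 or 1.51-fold, so close to the 1.5-fold mark that it fell short of it when each array was centred on its own median (0.576) or when 32 was added on the linear scale (0.523).

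Smtn and Lmod1 showed no such difference. Smtn encodes smoothelin, a filament-associated protein of fully contractile muscle, and it read 7.68 and 7.69, a difference of 0.01. Its second probe set read 5.78 and 5.73, a difference of -0.05. Lmod1 encodes leiomodin, which nucleates actin filaments in smooth muscle, and it read 6.32 and 6.33, a difference of 0.01. All 10 genes were above 0 as deposited, but Smtn and Lmod1 turned to just below 0 with the arrays centred on their medians (-0.00 and -0.01), Smtn also with its probe sets averaged (-0.02), and Lmod1 also with quantile (-0.01) or loess (-0.00) scaling.

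The genes of the linking proteins were Des and Synpo2. Des encodes desmin, the intermediate filament protein of muscle, which rodent stellate cells also make. It read 7.29 in the control and 8.24 after irradiation, a difference of 0.95 or 1.93-fold. A further probe set, annotated with both Gm15179 and Des, read 5.35 and 5.50, a difference of 0.15, below the median of all deposited values (6.06) on both arrays. It was left out of the measure because it carries more than 1 symbol. Synpo2 encodes synaptopodin 2, also called myopodin, an actin-bundling protein of muscle. It read 5.75 and 6.03, a difference of 0.28, and lay below the median of all values on both arrays, whereas the other 9 genes lay above it on both. No member therefore passed a floor at that median through the irradiated array alone.

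Set among all 22180 genes in order of the difference, Cnn1 held place 8 and Acta2 place 12 from the top. Des was at place 65, Myl9 at 95, Actg2 at 96 and Tagln at 258. Myh11 followed at 813 and Synpo2 at 1748, while Smtn at 10015 and Lmod1 at 10097 lay near the middle. These places describe the 2 arrays, and the genes were listed with them known.

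**Figure D2:**
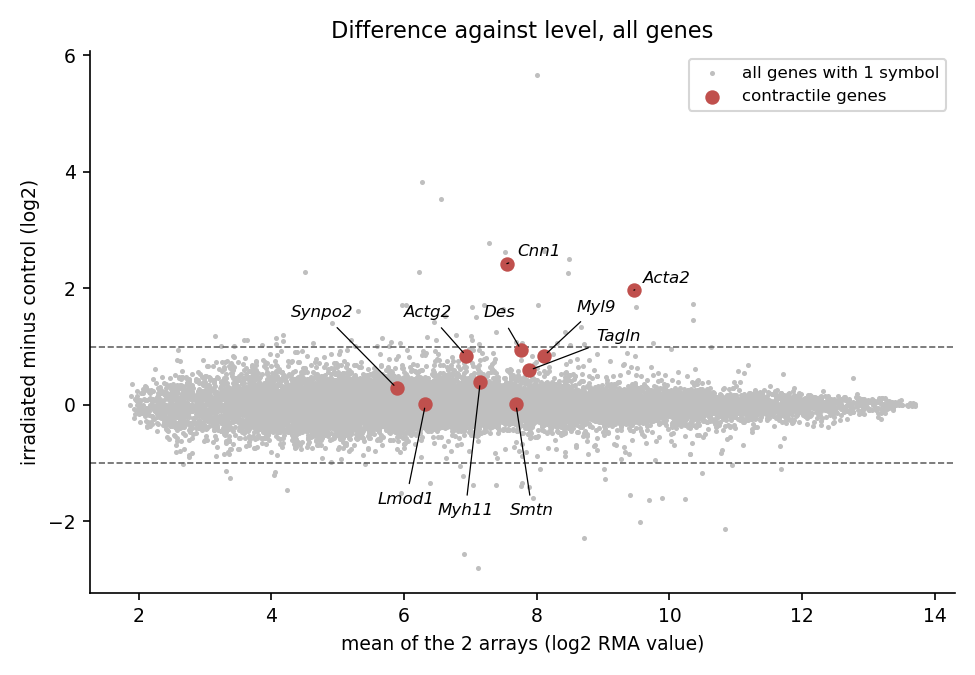
Irradiated minus control log2 difference (vertical axis) against the mean log2 value of the 2 arrays (horizontal axis) for all 22180 genes (grey) and the 10 contractile genes (red, named); dashed lines mark 2-fold. Cnn1 and Acta2 lie above the upper dashed line, at 2.42 and 1.97, and Smtn and Lmod1 lie at 0.01 inside the grey band.

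The 10 genes lie on 8 chromosomes, and only Cnn1 with Tagln (chromosome 9) and Des with Lmod1 (chromosome 1) share a chromosome. Promoter sequences of 7 of the 10 genes were matched by gene identifier in RefSeq (mouse build GRCm38.p6), and the 250 bases before the start site were read. Muscle genes are known for CArG boxes, where serum response factor binds with its coactivators. A CArG box was searched as CC, then 6 letters that are each A or T, then GG, which reads alike on both strands, and also with 1 of the 6 letters changed. The sequences of Acta2 and Myl9 are shown because they held such letters, and those of Cnn1 and Smtn because they held none while their differences were the largest and close to 0. Capitals mark a CArG box or a CArG box with 1 letter changed.
Acta2: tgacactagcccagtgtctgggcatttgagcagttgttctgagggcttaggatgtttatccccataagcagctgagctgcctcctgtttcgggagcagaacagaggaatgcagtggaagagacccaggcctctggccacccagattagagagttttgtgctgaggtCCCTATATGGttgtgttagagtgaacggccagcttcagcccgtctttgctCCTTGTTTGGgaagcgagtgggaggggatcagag
Myl9: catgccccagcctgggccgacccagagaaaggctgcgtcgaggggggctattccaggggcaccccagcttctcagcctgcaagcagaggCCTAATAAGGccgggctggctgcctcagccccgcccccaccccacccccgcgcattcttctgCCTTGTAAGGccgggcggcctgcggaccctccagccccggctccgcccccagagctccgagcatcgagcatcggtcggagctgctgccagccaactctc
Cnn1: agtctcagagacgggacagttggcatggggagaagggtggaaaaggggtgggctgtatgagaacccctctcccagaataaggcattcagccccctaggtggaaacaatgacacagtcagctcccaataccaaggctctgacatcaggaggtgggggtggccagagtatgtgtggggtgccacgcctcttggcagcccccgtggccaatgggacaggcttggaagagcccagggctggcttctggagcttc
Smtn: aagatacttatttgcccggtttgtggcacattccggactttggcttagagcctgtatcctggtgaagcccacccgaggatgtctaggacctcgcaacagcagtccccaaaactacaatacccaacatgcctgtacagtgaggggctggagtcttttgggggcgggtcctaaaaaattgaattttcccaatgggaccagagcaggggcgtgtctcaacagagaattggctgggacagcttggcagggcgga

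The Acta2 stretch is chr19:34255374-34255623 on the minus strand, the Myl9 stretch chr2:156775214-156775463 on the plus strand, the Cnn1 stretch chr9:22099003-22099252 on the plus strand and the Smtn stretch chr11:3539293-3539542 on the minus strand. All 4 lie directly upstream of the annotated start site. Myl9 held a full CArG box, CCTAATAAGG, at -161 to -152 from the start site, and CCTTGTAAGG, with 1 letter changed, at -99 to -90. Acta2 held 2 boxes with 1 letter changed, CCCTATATGG at -84 to -75 and CCTTGTTTGG at -34 to -25. The full box was found in 1 of the 7 sequences and in 1.47% of all 32851 promoters of the same length, and a box with at most 1 letter changed in 2 of the 7 and 8.59% of all.

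The motif CATTCC, the letters of the MCAT element known from muscle genes, was searched on both strands and overlapped no CArG box. It was in 3 of the 7 sequences (Acta2, Lmod1 and Smtn) and in 12.6% of all promoters. The genes that held it had differences of 1.97, 0.01 and 0.01. A match of letters is a description of the sequence only.

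Each contractile gene was also set beside its nearest relatives, chosen after the values were seen. The calponin genes Cnn2 and Cnn3, which are made in many non-muscle cells, were at 0.20 and 0.10, against 2.42 for Cnn1. The light chain genes Myl12a and Myl12b of non-muscle myosin were at -0.15 and -0.05, against 0.85 for Myl9. The non-muscle heavy chain genes Myh9, Myh10 and Myh14 were at 0.12, 0.09 and -0.19, against 0.40 for Myh11. In each of these families the smooth muscle gene had the highest difference on these arrays, though Myh11 led Myh9 by only 0.27. The contractile genes and their relatives were both chosen with the values known, so nothing is read from that order.

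The gap was narrower for the filament gene Des and for Tagln. Vim, the vimentin gene of mesenchymal cells, read 10.02 and 10.51, a difference of 0.49, against 0.95 for Des, while Gfap was at 0.11 and Prph at 0.06. Tagln2, a widely made relative of transgelin, was at 0.32 and the neuronal Tagln3 at -0.02, against 0.59 for Tagln. Lmod2 and Lmod3, the leiomodins of striated muscle, were at 0.09 and 0.10, and Smtnl1 and Smtnl2 at 0.02 and 0.06, slightly above Lmod1 and Smtn. The Synpo2 relatives Synpo and Synpo2l were at -0.06 and -0.22. Of the 22 relatives, 0 were 1.5-fold higher or lower, near the shares of all genes (1.23% and 0.888%), and their median was 0.08.

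**Figure D3:**
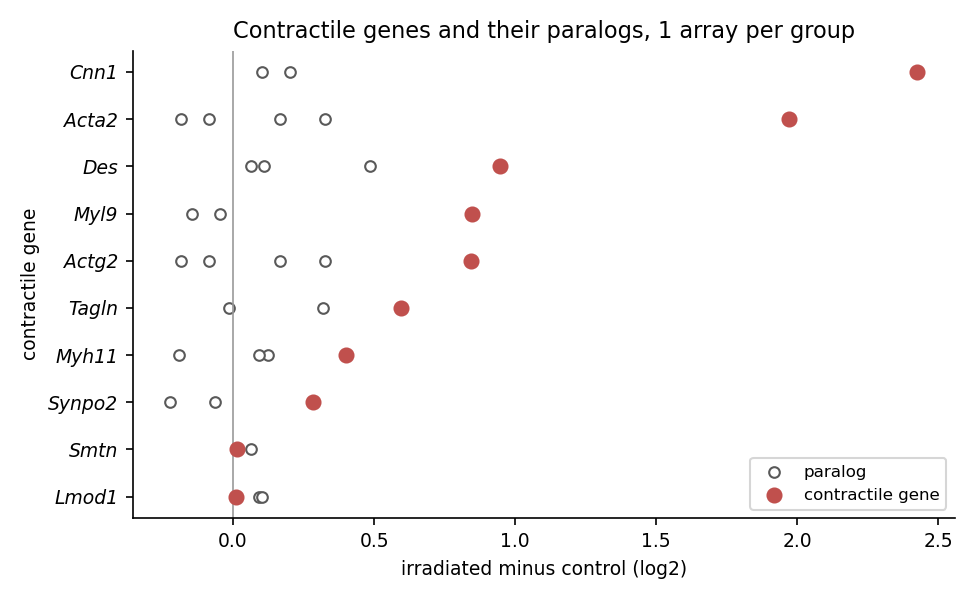
Irradiated minus control log2 difference (horizontal axis) of each contractile gene (filled points) and its relatives (open points), by gene (vertical axis), with 1 array per group. The relatives lie between -0.22 and 0.49, and the filled points of all genes but Smtn and Lmod1 lie to the right of their own relatives. Genes and relatives were chosen with the values known, so nothing is read from their order.

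Other genes of the contractile machinery were counted in the same way. Of 35 such genes listed, 34 were measured, 30 were above 0 (10627 of all 22180 genes were) and their median was 0.14. At least 1.5-fold higher was 1 gene and 0 were lower, where 1.23% and 0.888% of all genes were. That 1 gene was Pdlim3, which encodes a protein that docks on alpha-actinin, at 6.90 and 7.79, a difference of 0.89 or 1.85-fold, above 7 of the 10 contractile genes. Mylk, the light chain kinase gene, read 9.29 and 9.33, a difference of 0.04. Cald1, the gene of the actin-binding caldesmon, was at 0.06, and the tropomyosin genes Tpm1 and Tpm2 were at 0.27 and 0.01. Tpm2 read 5.83 and 5.84, and was 1 of 5 genes of the list below the median of all deposited values on both arrays. Myl6, the essential light chain gene, was at -0.10. Thus the genes of the kinase and caldesmon differed by under 1.5-fold where Cnn1 and Acta2 differed by 5.37-fold and 3.92-fold. Mylk (9.29) and Cald1 (9.08) read above Acta2 (8.48) in the control. How much of their signal came from smooth muscle was not tested.

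The regulators of these genes were close to 0. Of 17 measured genes on the list of transcriptional regulators, 0 were 1.5-fold higher or lower, where 1.23% and 0.888% of all genes were. A count of 0 in a list this short is near those shares. The median of the 17 was -0.08. That list also held Cspg4 (-0.11), which is a pericyte marker and not a transcriptional regulator. Of the 17, 2 lay below the median of all deposited values on both arrays. Srf, the gene of the serum response factor that binds CArG boxes, read 8.53 and 8.54, a difference of 0.00. Its coactivator gene Myocd, the master regulator of smooth muscle, read 6.02 and 6.17, near the median of all deposited values, a difference of 0.14. The related Mrtfa and Mrtfb were at 0.04 and 0.15. Values of transcripts do not show the activity of these factors. Of 28 measured receptors, channels and second messengers of contraction, 0 reached 1.5-fold in either direction, also near those shares, and the median was 0.02. Below the median of all deposited values on both arrays were 5 of the 28. The highest difference of the 28 was that of Kcnmb1, the beta subunit gene of the calcium-activated potassium channel of smooth muscle. It read 5.90, below that median, in the control and 6.46 after irradiation, a difference of 0.56 or 1.47-fold.

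A further list held immediate early genes that serum response factor is also known to drive. There 4 of 15 were at least 1.5-fold higher, or 3 with 32 added on the linear scale, and 0 were lower. Over all 22180 genes 1.23% were higher and 0.888% lower. Of the 15, 14 were above 0, where 10627 of all genes were, and the median was 0.31. The 4 were Egr1 (4.83-fold) and Fos (2.84-fold), both transcription factor genes of rapid responses, the matrix gene Thbs1 (1.73-fold) and the nuclear receptor gene Nr4a1 (1.63-fold). Each of them was above the median of all deposited values on both arrays.

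**Figure D4:**
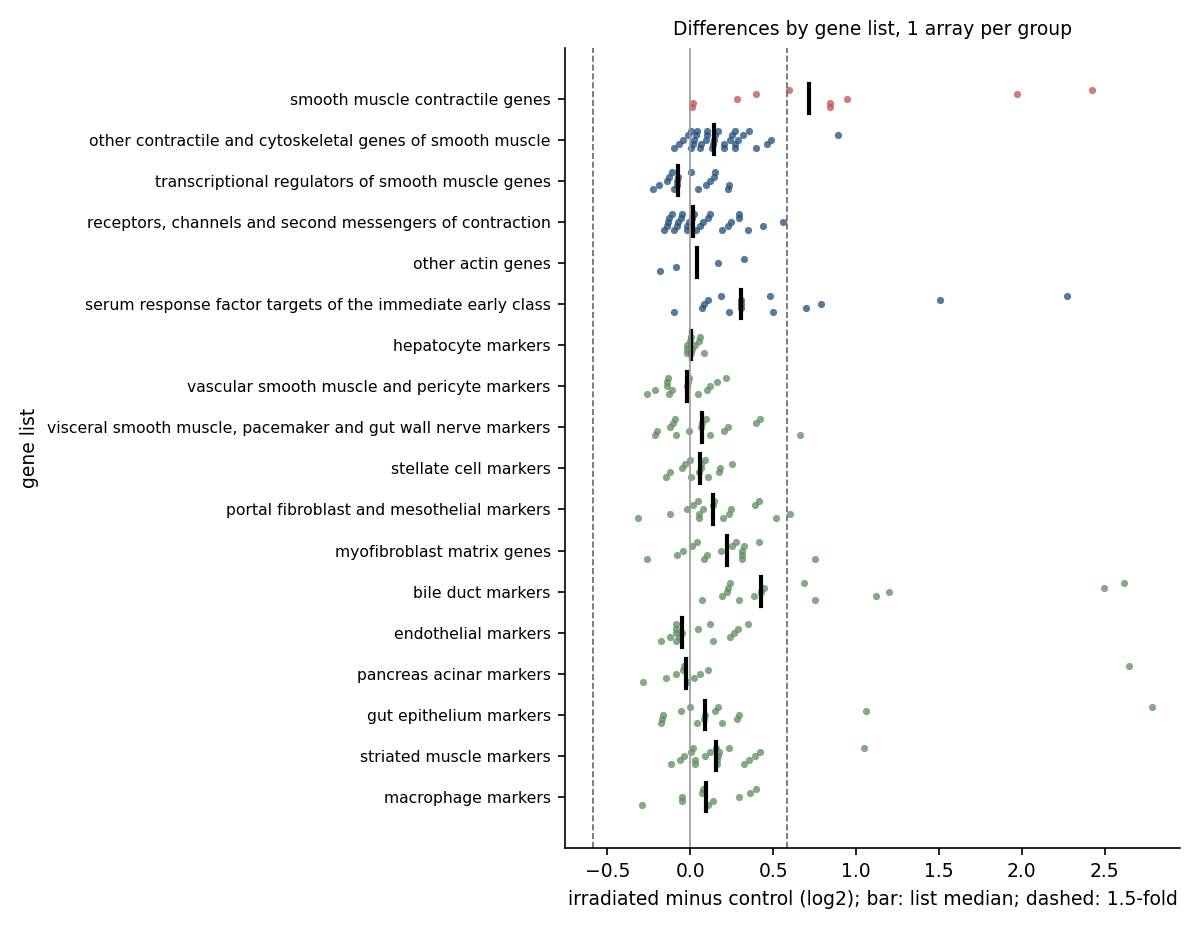
Irradiated minus control log2 difference (horizontal axis) of every measured gene of each list (vertical axis; red, the contractile genes; blue, related pathway genes; green, cell type markers), with list medians as black bars and 1.5-fold as dashed lines; vertical scatter within a list has no meaning. Medians are 0.72 for the contractile genes, 0.14 for the other contractile and cytoskeletal genes, -0.02 for vascular smooth muscle and pericyte markers and 0.43 for bile duct markers.

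Markers of the cells that could carry contractile transcripts were examined beside the 10 genes. Over all 22180 genes, 1.23% were at least 1.5-fold higher, 0.888% were lower and 10627 were above 0. In any of the marker lists, a count of 0 past 1.5-fold is near those shares. Of 15 vascular smooth muscle and pericyte markers, none of them among the 10 genes, 0 were 1.5-fold higher or lower, 5 were above 0, and the median was -0.02. Some of the 15 are also in the lists of receptors or regulators above, so these lists overlap. Their summed level on the linear scale was 2757 in the control and 2812 after irradiation. Such a sum weighs the genes with high values most, so it is not a measure of a cell type. Here the largest part was Rgs5, at 9.63 and 9.79. Among the 15 markers Rgs5, a regulator of G protein signalling in pericytes, was at 0.16, the receptor gene Notch3 at 0.12 and the growth factor receptor gene Pdgfrb at -0.01. Of these 15 genes, 3 lay below the median of all deposited values on both arrays.

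The stellate cell markers, with Acta2 and Des left out, were also close to 0. Of 14 measured, 0 reached 1.5-fold in either direction, where 1.23% of all genes were higher and 0.888% lower. Of these 14, 9 were above 0, the median was 0.06, and the summed level was 7268 and 7171. The largest part of that sum was Ecm1, at 11.50 and 11.38, a difference of -0.12. Reln, a secreted protein gene of stellate cells, was at 0.01, and Lrat, which makes the retinyl esters that these cells store, at 0.18. Portal fibroblast and mesothelial markers had a median of 0.14 over 17 genes, 14 above 0, with summed levels of 5472 and 6147. The largest part of these sums was Dcn, at 11.89 and 12.02. Of the 17 genes, 1 was 1.5-fold higher, Cd34 at 0.60, which fell short of 1.5-fold with the arrays centred or with 32 added. Matrix genes of myofibroblasts had a median of 0.22 over 16 genes, 13 above 0, with 1 past 1.5-fold, the matricellular gene Postn (0.75), and Col1a1, a main fibrillar collagen gene, at 0.27. Their summed levels were 11228 and 12039, of which Fn1, at 12.98 and 13.03, was the largest part.

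Markers of gut wall muscle, its pacemaker cells and nerves had a median of 0.07 over 16 genes, 9 above 0, with summed levels of 1178 and 1285. Some of the 16 are also in the contractile or receptor lists above. There 1 was past 1.5-fold, the chloride channel gene Ano1, at 6.48 and 7.14 (0.66), which fell short with 32 added, while Kit, which marks the same pacemaker cells and also mast cells, was at 0.07. Of these 16 genes, 8 lay below the median of all deposited values on both arrays. Striated muscle markers had a median of 0.16 over 20 genes, 17 above 0 and 12 of them below that median on both arrays, with summed levels of 1261 and 1476. The 1 past 1.5-fold was Tnnt2, cardiac troponin T, at 6.61 and 7.66 (1.05), and without it the summed levels were 1164 and 1274. Of the skeletal muscle genes Myh1 was at 0.42, Atp2a1 at 0.39, Ckm at 0.03 and Myh4 at -0.11, all short of 1.5-fold, with Myh1, Myh4 and Ckm below that median on both arrays. Endothelial markers had a median of -0.05 over 15 genes, 7 above 0, and macrophage markers 0.09 over 10, also 7 above 0, with 0 past 1.5-fold in either list, and Pecam1 was at -0.09.

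Some epithelial markers were higher on the irradiated array as well. Bile duct markers were above 0 in 15 of 15 measured, with 6 at least 1.5-fold higher, a median of 0.43 and a summed level of 1372 in the control and 2927 after irradiation. Without those 6 the summed level was 825 and 998. The bile duct genes with the largest differences were the mucin gene Muc1 (2.62), Cd24a (2.50), the keratin gene Krt19 (1.20) and Anxa13 (1.12). Of 15 gut epithelium markers 2 were past 1.5-fold, Muc3 (2.79) and Lgals4 (1.06), while 10 of the 15 were above 0 and the median was 0.09. Fabp2 (-0.16), Sis (-0.17), Gkn1 (-0.17) and Muc2 (-0.06) were below 0. Of the 15 gut epithelium markers, 4 lay below the median of all deposited values on both arrays, among them Sis (4.83 and 4.65). The summed levels were 2401 and 2937, and without Muc3 and Lgals4 they were 2124 and 2074. Of 10 pancreas acinar markers 1 was past 1.5-fold, the protease gene Ctrb1 (2.65), and 5 lay below the median of all deposited values on both arrays. Of the 10, 4 were above 0 and the median difference was -0.03. The summed levels were 681 and 1247, and without Ctrb1 they were 570.4 and 556. The part of duct, gut or pancreas tissue in the values of the contractile genes was not tested, and with 1 array per group it cannot be told apart from irradiation.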

How the data were processed

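The authors deposited log2 values of 41345 probe sets on both arrays, made by RMA (background correction, normalization between arrays and summary of probes) with Affymetrix Expression Console 1.3.1, per the submitters' processing notes. That the scale is log2 was taken from the range of the deposited values (1.46 to 13.9), since no source states it. Normalized values of this kind hide a change in total RNA per cell. The array's genome build was not given in the sources. Per the labels, 300 ng of total RNA was labelled with biotin.

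Symbols came from GEO's platform annotation, which can be old: 23521 probe sets had 1 symbol, 1814 several and 16010 none. Folds were counted over all 22180 genes with 1 symbol, with no filter on low values, using pandas 2.3.3 and statsmodels 0.14.6. The procedure was run on simulated data with large differences, at the 2-fold mark only. That run did not test the 1.5-fold mark or the choice among probe sets. The number of arrays limits the precision. The genes named were the 10 members, the other actins, up to 4 genes of each list past 1.5-fold with a value at or above the median of all deposited values, and a set fixed by name. Kcnmb1, Mrtfa, Mrtfb, Cspg4, Ecm1, Dcn, Fn1, Myh1, Atp2a1, Fabp2, Sis, Gkn1, Muc2, the relatives and the neighbours were named outside that rule. The members and all lists were chosen with earlier results of these data known. Alternatives changed the scaling, the probe set, an offset, low values, the fold, the filter and the list summary.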

Additional observations from a re-analysis of the deposited data

How the results depend on the processing

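No paired analysis was possible because there was only 1 array in a group. With no replicates, a difference, median or mean was called moved when it shifted by at least 0.183, the half-width of the central 68% of differences over all genes. A count was called moved when it changed by more than 1.5-fold, or to or from 0. Of 60 values of the 10 genes under the alternatives, 2 moved: Cnn1 to 2.05 with 32 added on the linear scale, and Synpo2 to 0 with low values set to the median of all deposited values. No difference of at least 1.5-fold changed sign. The genes at least 1.5-fold higher numbered 5 with the arrays centred, with 32 added, or without Actg2, an alternative chosen after seeing the data. The 2 genes past 2-fold were also past 3-fold. Over genes whose higher value reached that median, 1.14% and 0.321% of all genes were 1.5-fold and 2-fold higher. The mean of the immediate early list was 0.52, above its median. With 32 added, 3 immediate early genes and 4 bile duct markers were at least 1.5-fold higher. Of 204 values of marker lists, 8 moved, among them the bile duct median, which was 0.69 over genes above the median of all values. The sums without genes past 1.5-fold were also chosen after seeing the data. All were reruns of the same 2 arrays.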

Other observations

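The genes that flank the 10 contractile genes were read as well, taking the nearest measured protein-coding gene on each side by RefSeq order, a choice made after seeing the data. Of these 20 neighbours, 0 were 1.5-fold higher or lower, near the shares of all genes (1.23% and 0.888%). Above 0 were 10 of the 20, and they ran from -0.21 to 0.42 with a median of -0.00. Acta2 lies between Stambpl1, a deubiquitinase gene, at -0.18, and the death receptor gene Fas, a known p53 target, at 0.16, against 1.97 for Acta2 itself. Cnn1 lies between Ecsit (-0.14) and Elof1 (-0.01), against 2.42. The neighbours of Des were Dnpep (0.12) and the muscle kinase gene Speg (-0.03), and those of Myl9 were Dlgap4 (0.07) and Tgif2 (-0.07). The highest neighbours were Sec24d beside Synpo2 (0.42) and Shisa4 beside Lmod1 (0.41), both higher than the contractile gene they flank (0.28 and 0.01).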
